A study of Mus musculus with 30 samples.

Results

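Cytoplasmic ribosomal protein genes encode the proteins of the ribosome that translates messenger RNA in the cytosol. Genes were taken by symbol (Rps or Rpl with a number, Rpsa, Rplp0, Rplp1 and Rplp2, without pseudogenes and without the Rps6k kinases), at a mean CPM (read count scaled to library size) of at least 10 over 24 libraries. The rule found 81 of 49315 genes, of which 32 belong to the small subunit, 46 to the large subunit and 3 to the acidic stalk of the large subunit. Of 90 symbols that the pattern takes, 9 were below this level: Rpl3l, Rpl6l, Rpl10l, Rpl32l, Rpl39l, Rps3a2, Rps3a3, Rps4l and Rps12l1. All 81 genes also had the 10 reads over all libraries that the tests required.

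The libraries were bulk RNA sequencing of mouse tumor cell lines in culture. B16F10 is a melanoma line, and 6694c2 is a pancreatic ductal adenocarcinoma (PDAC) line of female mouse origin, made from an animal with, among its alleles, 1 floxed p53 allele beside a wild-type one, a floxed YFP reporter and Pdx-cre, whose promoter is active in pancreatic progenitors. Each line was cultured for 24 h with vehicle, IFNβ (1000 U/mL), IFNγ (100 ng/mL) or STING agonist (225 μg/mL), and each of the 8 groups had 3 libraries. Each tumor type was represented by 1 line, so a difference between the lines cannot be told apart from a difference between tumor types, and the labels do not say whether the 3 libraries of a group came from separate cultures, so that p-values measure the spread between these libraries.

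Ribosomal proteins are needed in near-equal numbers, and their genes are among the most highly expressed of growing cells. Most of their messenger RNAs begin with a run of pyrimidines, the 5' terminal oligopyrimidine (TOP) motif, through which mTORC1 and the RNA-binding protein LARP1 regulate their translation. Interferons induce proteins such as the IFIT and OAS families and PKR that restrain translation during infection.

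The starts of several genes are shown because the TOP motif lies there. Each sequence covers 10 bases before and 20 bases from the RefSeq start (build GRCm38.p6), 5' to 3' on the gene's strand. Capitals mark the longest run of C and T, of at least 5 bases, read from a C within 5 bases of the start. Any C or T directly before that C is in lower case, so a tract can be longer than marked. The genes shown first all have C and 4 further C or T bases at the start itself, as do 12 of the 61 genes with a promoter. These sequences are therefore not typical of the set. Rpl35, Rps6, Rps18 and Rpl38 are described below for their changes with treatment, and Rpl14, Rps27 and Rplp2 for their difference between the lines.
Rpl35 (chr2:39005112-39005141, minus strand): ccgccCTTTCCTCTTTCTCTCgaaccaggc
Rpl14 (chr9:120571507-120571536, plus strand): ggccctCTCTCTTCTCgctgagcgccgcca
Rps6 (chr4:86857348-86857377, minus strand): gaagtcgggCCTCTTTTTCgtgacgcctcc
Rps18 (chr17:33955646-33955675, minus strand): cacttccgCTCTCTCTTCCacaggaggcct
Rps27 (chr3:90213629-90213658, minus strand): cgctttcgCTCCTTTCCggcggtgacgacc
Rpl38 (chr11:114668570-114668599, plus strand): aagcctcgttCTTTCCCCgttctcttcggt
Rplp2 (chr7:141447641-141447670, plus strand): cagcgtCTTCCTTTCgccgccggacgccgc

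The RefSeq starts of Rpl4, Rpl37a, Rpl10a and Rpsa, which are described below for their treatment effects, had no such run, and Rps27l, the member with the largest deficit in 6694c2 cells, had 1 of the minimum length.
Rpl4 (chr9:64173377-64173406, plus strand): tttcctgtgggagcagccgggtagagagga
Rpl37a (chr1:72711250-72711279, plus strand): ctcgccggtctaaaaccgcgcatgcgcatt
Rpl10a (chr17:28328461-28328490, plus strand): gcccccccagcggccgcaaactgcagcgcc
Rpsa (chr9:120127756-120127785, plus strand): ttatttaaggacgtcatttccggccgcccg
Rps27l (chr9:66946076-66946105, plus strand): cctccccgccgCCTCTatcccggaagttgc

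A promoter was found for 61 of the 81 genes, and 28 of these (45.9%) had such a run, against 18.5% of 27025 promoters. A C at the start itself followed by 4 bases that are each C or T was found in 12 of the 61 (19.7%) and in 2.49% of all promoters. The search covered the gene's strand only. RefSeq starts are annotated positions and were not measured in these cells.

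Between 15543131 and 32266795 reads were counted on genes per library. The correlation of log2 CPM between libraries of a group was 0.997 to 0.9987, and every pair differed by more than sampling noise. Summed melanocyte markers, all 7 above 0, ranged from 1.598e+04 to 1.999e+04 CPM in B16F10 libraries and from 17.4 to 120 CPM in 6694c2 libraries. The 8 ductal epithelial markers summed to 2771 to 3392 CPM in 6694c2 libraries and to 6.40 to 35.3 CPM in B16F10 libraries, so each line held the markers of its label at far the higher level. The low sums moved with treatment. Melanocyte markers in 6694c2 cells summed to 79.6 to 81.3 CPM with vehicle, 24.3 to 37.1 CPM with IFNβ (6 of 7 called lower), 33.1 to 120 CPM with IFNγ (0 of 7) and 17.4 to 20.96 CPM with STING agonist (5 of 7). Ductal markers in B16F10 cells summed to 6.40 to 8.91 CPM with vehicle and 30.2 to 35.3 CPM with STING agonist (3 of 8 called higher), and 5 of 8 were higher with IFNβ. The part of these shifts in the results was not tested. Markers of B cells summed to 13.1 to 41.7 CPM, of T cells to at most 5.79 CPM, with Trac the 1 gene of 5 that could be tested, and of myeloid cells to at most 8.08 CPM. Of 6 interferon-response genes, 6 were higher with IFNβ in each line, while 5 in B16F10 and 6 in 6694c2 cells were higher with IFNγ.

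In 6694c2 cells, vehicle replicate 1 stood apart for the ribosomal protein genes. All 81 had their lowest vehicle value in this library, at a median of 0.815 times the mean of the other vehicle libraries. Among 9259 other genes of at least 10 CPM, 37.8% had their lowest vehicle value there. Among 229 of these genes with under 1000 exonic bases it was 84.7%, at a median ratio of 0.827, and 19 of the 81 ribosomal protein genes are of that length. Counts for 6694c2 cells against vehicle are therefore given with and without this library.

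The 81 genes together took 7.51%, 7.16% and 7.54% of the reads on genes in the B16F10 vehicle libraries. With IFNβ the shares were 6.40%, 6.30% and 6.80%, and with IFNγ 6.64%, 6.32% and 6.90%. All 6 interferon libraries were below all 3 vehicle libraries. With STING agonist the shares were 7.55%, 7.40% and 7.45%, inside the vehicle range but for 1 library just above it.

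In 6694c2 cells, the vehicle shares were 8.45%, 10.1% and 9.85%. They were 8.57%, 7.94% and 9.27% with IFNβ, and 8.65%, 7.71% and 8.99% with IFNγ. STING agonist gave 9.10%, 9.85% and 9.94%. Every treated group overlapped the vehicle group, whose lowest value was that of replicate 1. In bulk libraries, fewer transcripts of these genes per cell and more transcripts of other genes give the same share.

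**Figure D1:**
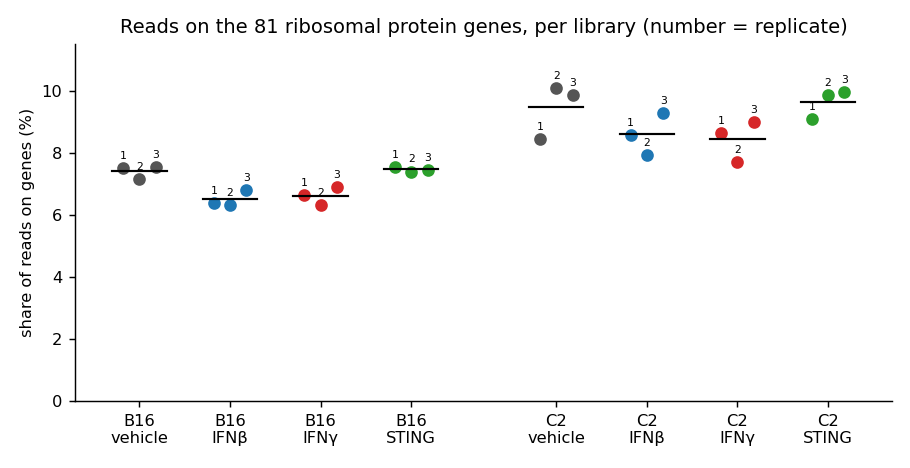
Share of reads on genes (y axis, percent) taken by the 81 ribosomal protein genes in each library, by line (B16, B16F10; C2, 6694c2) and treatment, with points for the libraries and bars for the mean and SD. The B16F10 means were 7.40% with vehicle, 6.50% with IFNβ and 6.62% with IFNγ, and the 6694c2 vehicle mean was 9.47%.

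Levels of single genes were compared per exonic kilobase (RPKM). Rplp1, which encodes a stalk protein that helps recruit elongation factors, was the highest on average, with 4147 ± 200 RPKM in B16F10 and 3450 ± 495 RPKM in 6694c2 vehicle cells (SD, n = 3). Rps12 and Rpl8 came next, with 2345 and 2357 RPKM in B16F10 and 3565 and 2658 RPKM in 6694c2 cells. The lowest were Rpl22l1 at 55.2 ± 4.24 and 37.3 ± 4.64 RPKM, Rpl7l1, a paralog with a role in ribosome assembly, at 83.8 and 93.2 RPKM, and Rps15a at 112 and 125 RPKM. The median was 464 RPKM in B16F10 and 582 RPKM in 6694c2 vehicle cells, and the 90th percentile was 6.78 and 7.14 times the 10th. This spread depends on the exonic length counted, which ran from 404 to 6270 bases (median 1726) and includes alternative exons.

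In B16F10 cells, IFNβ lowered most ribosomal protein genes by a small amount. A gene was called at an adjusted p under 0.05 (quasi-likelihood test of edgeR, with the adjustment of Benjamini and Hochberg over 21138 genes). Of the 81 genes, 69 were lower (85.2%, against 11.2% of all genes) and 1 was higher (against 12.7%). The median log2 fold change was -0.21, which is 13.3% below vehicle, and the middle 50% of the genes lay between -0.30 and -0.15. None changed over 1.5-fold. In 58 genes all 3 IFNβ libraries were below all 3 vehicle libraries, which held for 14.3% of all genes. Among 849 other genes of at least 200 CPM, 46.5% were lower and the median was -0.12.

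Rpl4, which encodes a core large subunit protein lining the peptide exit tunnel (chr9:64173375-64178666), had the largest decrease. Its CPM was 1621, 1573 and 1605 with vehicle and 1081, 1093 and 1120 with IFNβ. The groups were well apart, and the log2 fold change was -0.54 (SE 0.048, adjusted p = 5.97e-24). Rpl37a, a small zinc-binding large subunit protein (chr1:72711290-72713813), went from 488, 486 and 509 CPM to 342, 329 and 381 CPM, a log2 fold change of -0.50 (SE 0.053, adjusted p = 1.81e-17). Rpl10a, which contributes to the L1 stalk near the exit site of transfer RNA (chr17:28328471-28331032), was at 539, 502 and 511 CPM with vehicle and at 324, 389 and 425 CPM with IFNβ. None of the 3 genes had an IFNβ library within its vehicle range, and for Rpl10a the IFNβ libraries were spread the most.

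Rpl35, a large subunit protein at the exit of the peptide tunnel, fell from 730, 674 and 754 CPM to 530, 521 and 584 CPM (log2 fold change -0.40, SE 0.051, adjusted p = 1.34e-12). Rps16, a small subunit protein close to the decoding centre, fell from 817, 839 and 848 CPM to 632, 638 and 661 CPM (log2 fold change -0.37, SE 0.050, adjusted p = 1.38e-11). The decrease of Rpl10a was -0.45 (SE 0.053, adjusted p = 2.05e-14). These 5 genes were called in each of 15 alternative analyses.

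The decrease ran through both subunits. In the small subunit 29 of 32 genes were lower, with a median of -0.26, and in the large subunit 37 of 46, with a median of -0.20. All 3 stalk genes were lower. The genes not called included Rps24, at 1084, 1002 and 1091 CPM with vehicle and 1121, 1030 and 1045 CPM with IFNβ.

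The exonic length counted for a gene, which includes alternative exons and is not transcript length, moved with the IFNβ effect among other genes of at least 10 CPM. Of 229 such genes under 1000 exonic bases, 51.1% were lower (median -0.20), and of 5148 with 4000 or more bases, 17.6% (median 0.04). Other genes of at least 200 CPM showed no steady order by length. Of these, 53.6% of 28 under 1000 bases were lower (median -0.18). From 1000 to under 2000 bases it was 42.7% of 110 (median -0.10), and at 2000 or more 46.8% of 711 (median -0.12). Among the ribosomal protein genes, 17 of 19 under 1000 bases were lower (median -0.23), 26 of 31 from 1000 to under 2000 bases (median -0.21) and 26 of 31 of 2000 bases or more (median -0.20). Transcript length itself was not measured, and its part in the decrease was not tested.

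**Figure D2:**
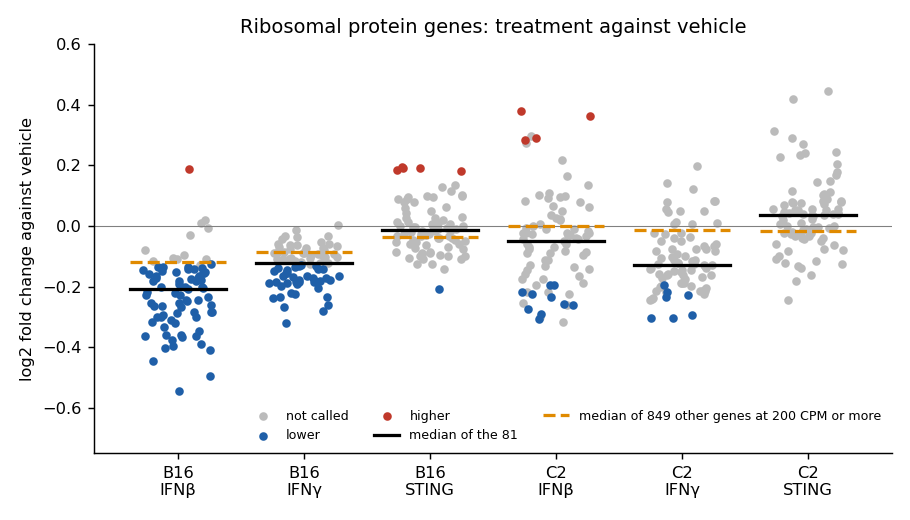
Log2 fold change against vehicle (y axis) of each of the 81 ribosomal protein genes (points) in 6 comparisons, with the median of these genes as a black line and that of 849 other genes of at least 200 CPM as a dashed line. In B16F10 cells (B16) the IFNβ points center on -0.21 against -0.12 for the other genes, while the STING agonist points center on -0.01 in B16F10 and 0.04 in 6694c2 cells (C2).

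IFNγ lowered fewer of these genes in B16F10 cells, and by less. Here 39 of 81 were called lower, against 10.8% of all genes, and 0 higher, against 12% (0 at an unadjusted p under 0.05, and 0 by DESeq2). The median was -0.12, which is 8.18% below vehicle, and 80 of the 81 values were below 0. In 35 genes the 3 IFNγ libraries were all below the vehicle libraries, against 16.9% of all genes. The median of the 849 abundant other genes was -0.09, with 37.7% of them lower.

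Rpl37a led again, at 381, 370 and 438 CPM with IFNγ against 488, 486 and 509 with vehicle (log2 fold change -0.32, SE 0.053, adjusted p = 5.14e-08). Rpl4 was at 1353, 1278 and 1356 CPM (log2 fold change -0.27, SE 0.048, adjusted p = 7.55e-07), below its vehicle libraries but above its IFNβ libraries. Rpl37, another zinc-binding large subunit protein, went from 450, 482 and 485 CPM to 366, 361 and 441 CPM (log2 fold change -0.28, SE 0.053, adjusted p = 2.67e-06). All 3 were large subunit genes whose IFNγ libraries stayed below the vehicle libraries.

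Rpl41, which encodes the smallest ribosomal protein, and Rps3a1, a small subunit protein, followed. Their log2 fold changes were -0.26 (SE 0.052, adjusted p = 1.17e-05) and -0.24 (SE 0.048, adjusted p = 1.77e-05). By subunit, 19 of 32 small and 20 of 46 large subunit genes were lower, and 0 of the 3 stalk genes. The count depended on single libraries: without IFNγ replicate 2 it was 16, without vehicle replicate 3 it was 23, and with 1 fit over both lines it was 7.

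STING agonist left the ribosomal protein genes of B16F10 cells close to vehicle. The median was -0.01, 5 genes were called higher (against 1.93% of all genes) and 1 lower (against 1.53%). Of the 849 abundant other genes, 9.31% were higher and 7.77% lower, against 6.17% and 1.23% of the ribosomal protein genes. The genes called thus do not stand out from genes of that level. The lower gene was Rps20, a small subunit protein of the head domain (chr4:3831334-3835665), at 515, 562 and 562 CPM with vehicle and 493, 465 and 462 CPM with the agonist (log2 fold change -0.21, SE 0.052, adjusted p = 0.00501). Rps18, a small subunit protein that touches the large subunit, was the first of the higher genes, at 986, 927 and 998 CPM against 1153, 1051 and 1117 CPM (log2 fold change 0.19, SE 0.050, adjusted p = 0.0093). The treated and vehicle libraries of both genes did not overlap.

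Rpl38, whose loss disturbs skeletal patterning in mice, was higher by 0.19 (SE 0.054, adjusted p = 0.0159), with 313, 328 and 348 CPM in vehicle and 371, 402 and 359 CPM in treated libraries. Rps21 and Rpl24 had log2 fold changes of 0.19 each (adjusted p = 0.0214 and 0.0228). Rps27l, a p53-responsive copy of Rps27, rose by 0.18 (SE 0.053, adjusted p = 0.0293), from 408, 390 and 433 CPM to 463, 458 and 474 CPM. These calls were not stable to leaving out a library. Without vehicle replicate 2, 0 of the 81 were called in either direction. The number higher was 1 without vehicle replicate 1, STING agonist replicate 2 or STING agonist replicate 3 and 2 without STING agonist replicate 1, and Rps20 was not called without vehicle replicate 3 or STING agonist replicate 3.

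In 6694c2 cells, IFNβ gave a mixed picture. The median was -0.05, 10 genes were lower (against 7.86% of all genes) and 4 higher (against 10.4%), and 57 of 81 values were below 0. Among the 849 abundant other genes, 16.3% were lower and 20.6% higher, against 12.3% and 4.94% of the ribosomal protein genes. In 3 genes all IFNβ libraries were below all vehicle libraries, against 12.6% of all genes. Without vehicle replicate 1, the library that stood apart, 29 were lower, 0 were higher and the median was -0.13.

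Of the lower genes, 6 of 46 were large subunit, 3 of 32 small subunit and 1 of 3 stalk genes. Rpl3, a core protein near the peptidyl transferase centre, was at 1723, 1868 and 2007 CPM with vehicle and 1451, 1443 and 1632 CPM with IFNβ (log2 fold change -0.31, SE 0.064, adjusted p = 0.000301). Rpl7 went from 1449, 1634 and 1658 CPM to 1222, 1274 and 1380 CPM (log2 fold change -0.29, SE 0.068, adjusted p = 0.00125). For both genes every IFNβ library was below every vehicle library, and both were called in 15 of 15 alternatives.

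Rplp0, the base of the stalk, was at 3796, 4363 and 4444 CPM with vehicle and 3409, 3155 and 3955 CPM with IFNβ (log2 fold change -0.26, SE 0.069, adjusted p = 0.00498). Rpl5, which carries 5S ribosomal RNA and, when free, binds MDM2, went from 1269, 1478 and 1536 CPM to 1162, 1141 and 1283 CPM (log2 fold change -0.26, SE 0.066, adjusted p = 0.00384). Each of these genes had 1 IFNβ library that lay above vehicle replicate 1, and Rpl5 was not called without vehicle replicate 3 (adjusted p = 0.0532). Rpl4 was also lower, at -0.22 (adjusted p = 0.0133), but not without vehicle replicate 2 or 3 or IFNβ replicate 1.

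The genes called higher were Rps20, Rps28, Rps29 and Rpl41. Rps20 was at 806, 1069 and 931 CPM with vehicle and 997, 1264 and 1168 CPM with IFNβ (log2 fold change 0.29, SE 0.089, adjusted p = 0.0168). Rps28, one of the smallest proteins of the small subunit, was at 331, 533 and 413 CPM and 549, 471 and 624 CPM (log2 fold change 0.36, SE 0.124, adjusted p = 0.0332). In both the IFNβ libraries overlapped the vehicle libraries.

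Rps29 and Rpl41 had log2 fold changes of 0.38 (SE 0.128, adjusted p = 0.0322) and 0.28 (SE 0.096, adjusted p = 0.0324). None of the 4 higher calls held without vehicle replicate 1, with DESeq2, with scaling to total reads or with the stricter filter on low counts. Leaving out vehicle replicate 2 gave 8 higher and 4 lower, vehicle replicate 3 gave 3 lower, IFNβ replicate 2 gave 6 lower, and IFNβ replicate 3 gave 25 lower.

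IFNγ lowered 7 genes in 6694c2 cells, against 5.66% of all genes, and raised 0, against 7.89% (0 at an unadjusted p under 0.05, and 0 by DESeq2). The median was -0.13, which is 8.45% below vehicle, close to that of IFNγ in B16F10 cells although fewer genes were called. Among the 849 abundant other genes, 14.3% were lower and 16.6% higher, against 8.64% and 0 of the ribosomal protein genes. In 6 genes the IFNγ libraries were all below the vehicle libraries, against 11.6% of all genes. Without vehicle replicate 1, 40 genes were lower and the median was -0.19.

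Rpl7 had the smallest p, at 1404, 1211 and 1223 CPM with IFNγ (log2 fold change -0.30, SE 0.068, adjusted p = 0.00093). With IFNγ, Rplp0 was at 3569, 3187 and 3537 CPM (log2 fold change -0.29, SE 0.069, adjusted p = 0.00204). Every IFNγ library of both genes was below every vehicle library, and both were called in 15 of 15 alternatives. Rpl12, which binds at the stalk base, was lower, at -0.23 (adjusted p = 0.0151), as were Rpsa (-0.23, adjusted p = 0.0162) and Rpl5 (-0.22, adjusted p = 0.0189), with Rpl7l1 and Rpl9 making up the 7. Rpl12, Rpsa and Rpl5 were not called without vehicle replicate 2 or 3 or IFNγ replicate 2. The count was 2 without vehicle replicate 2, vehicle replicate 3 or IFNγ replicate 2, and 14 without IFNγ replicate 3.

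With STING agonist, 0 of the 81 genes were called in 6694c2 cells in either direction, against 0.203% of all genes higher and 0.156% lower, and without vehicle replicate 1 it was also 0 and 0. Unadjusted, 12 were higher and 2 lower at p under 0.05, and DESeq2 called 0. How many of all genes passed the unadjusted threshold was not counted, so none of the unadjusted counts given has a background. The median was 0.04, and -0.06 without vehicle replicate 1. Rps29, a small zinc-binding protein of the small subunit, had the highest value, with 301, 494 and 431 CPM in vehicle and 485, 563 and 623 CPM in treated libraries, which overlapped (log2 fold change 0.45, SE 0.128, adjusted p = 0.171). Without vehicle replicate 2, 4 genes were called higher.

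**Figure D3:**
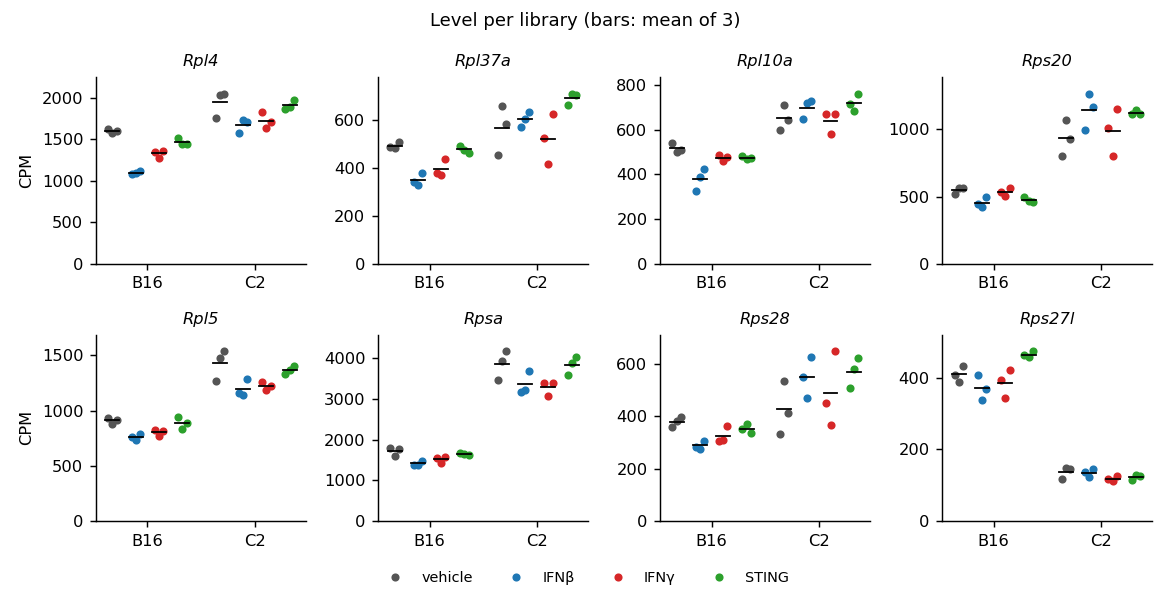
CPM (y axis) of Rpl4, Rpl37a, Rpl10a, Rps20, Rpl5, Rpsa, Rps28 and Rps27l in each library (points), by line and treatment, each panel starting at 0. Rpl4 in B16F10 cells steps from 1573 to 1621 CPM with vehicle down to 1081 to 1120 CPM with IFNβ, and Rps27l lies at 390 to 433 CPM in B16F10 and 119 to 150 CPM in 6694c2 vehicle cells.

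Across the 6 comparisons with vehicle, 72 genes were lower in at least 1 and 71 were never called higher. Those of a line share its vehicle libraries. Rpl5 and Rpsa were lower with both interferons in both lines. How many other genes follow such patterns was not counted, so these numbers have no background. With IFNβ in B16F10 cells alone, 46.5% of the 849 abundant other genes were lower. Rpsa, a small subunit protein also known as the laminin receptor, was at 1787, 1603 and 1766 CPM with vehicle, 1384, 1387 and 1466 CPM with IFNβ and 1548, 1423 and 1567 CPM with IFNγ in B16F10 cells. These are log2 fold changes of -0.28 (adjusted p = 1.53e-07) and -0.18 (adjusted p = 0.00115).

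In 6694c2 cells Rpsa was at 3455, 3940 and 4162 CPM with vehicle, 3169, 3228 and 3694 CPM with IFNβ and 3390, 3080 and 3392 CPM with IFNγ. Only the IFNγ libraries of Rpsa in this line, and both interferon groups in B16F10 cells, were clear of the vehicle libraries. The IFNβ change of Rpsa in 6694c2 cells was -0.20 (adjusted p = 0.0368), and it was not called without IFNβ replicate 1 or 2 or vehicle replicate 2 or 3. Rpl41, Rps20, Rps28 and Rps29 were higher in 1 interferon comparison and lower in another. Rpl27, Rpl34, Rpl36, Rpl36al, Rps13 and Rps24 were among the 7 genes called in none of the 6.

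Rpl11, the partner of Rpl5 in binding 5S ribosomal RNA and MDM2, was at 825, 793 and 857 CPM with vehicle in B16F10 cells, 640, 623 and 735 CPM with IFNβ and 697, 675 and 727 CPM with IFNγ. Its changes were -0.31 (adjusted p = 4.95e-08) and -0.24 (adjusted p = 4.38e-05), and the groups did not overlap. In 6694c2 cells they were -0.07 and -0.15 and not called. Rpl5 changed by -0.26 with IFNβ (adjusted p = 2.93e-06) and -0.18 with IFNγ (adjusted p = 0.00198) in B16F10 cells.

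Rpl13a, which is known from human myeloid cells to leave the ribosome after IFNγ and to silence a set of transcripts, differed between the interferons in B16F10 cells. Its CPM was 904, 807 and 913 with vehicle, 693, 732 and 825 with IFNβ and 880, 846 and 906 with IFNγ. With IFNβ the change was -0.22 (adjusted p = 0.000138), although 1 IFNβ library lay above the lowest vehicle library, and with IFNγ it was 0.00 (adjusted p = 1).

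The stalk genes were all lower with IFNβ in B16F10 cells. Rplp1 was at 2115, 1960 and 2166 CPM with vehicle and 1860, 1712 and 1940 CPM with IFNβ, a change of -0.18 (adjusted p = 0.00149), and Rplp0 and Rplp2 changed by -0.17 (adjusted p = 0.00317) and -0.16 (adjusted p = 0.0117). The groups did not overlap for Rplp1 and Rplp2, and 1 IFNβ library of Rplp0 (2110 CPM) lay above its lowest vehicle library (2107 CPM). Without vehicle replicate 2 or IFNβ replicate 2, Rplp2 was not called.

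Of 4 copies with their own symbols, Rpl22l1 and Rps27l were lower in B16F10 cells after IFNβ. Rpl22l1, a copy of Rpl22 that can take its place in the ribosome, was at 101, 111 and 119 CPM with vehicle and 102, 68.3 and 79.4 CPM with IFNβ. The change was -0.41 (SE 0.064, adjusted p = 8.47e-09), with 1 IFNβ library inside the vehicle range, while Rpl22 changed by -0.13 (adjusted p = 0.0468). Rps27l and Rps27 changed by -0.14 (adjusted p = 0.0368) and -0.20 (adjusted p = 0.00115). Rpl22 and Rps27l were not called without vehicle replicate 1, vehicle replicate 3 or IFNβ replicate 2, and Rps27 was not called without vehicle replicate 3. Rpl36al (-0.12), Rpl7 (-0.11) and Rpl7l1 (-0.01) were not called, and Rpl36a, the gene closest to Rpl36al, was lower, at -0.25. The difference between a copy and its parent was not tested. Reads can be shared between such copies and with processed pseudogenes, whose rows took 0.0112% to 0.0204% of reads and included Rpl38-ps2 at 25.4 CPM and Rps23-ps1 at 15.9 CPM, so single values of near-identical genes are uncertain.

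The interferons were then compared directly within each line. In B16F10 cells, 17 genes were lower with IFNβ than with IFNγ (against 7.85% of all genes) and 1 was higher (against 6.65%), at a median of -0.08. Of the 849 abundant other genes, 23.6% were lower and 10.1% higher, at a median of -0.04, against 21% and 1.23% of the ribosomal protein genes. By the number called lower, the 17 genes do not stand out from genes of that level. Rpl3 had the smallest p, at 1053, 997 and 1141 CPM with IFNβ and 1372, 1319 and 1373 CPM with IFNγ (log2 difference -0.35, adjusted p = 1.52e-10). Its IFNγ libraries lay inside its vehicle range of 1323 to 1391 CPM, but for that at 1319 CPM, just below it. Rpl10a (-0.32, adjusted p = 6.16e-08) and Rpl4 (-0.28, adjusted p = 5.45e-07) followed. These 3 genes were called in all 10 alternatives. The count of lower genes was 9 without IFNγ replicate 3, 28 without IFNγ replicate 2 and 44 without IFNβ replicate 3.

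In 6694c2 cells, 3 genes were higher with IFNβ than with IFNγ (against 7.3% of all genes) and 1 lower (against 6.57%). Rpl7l1 was at 241, 229 and 259 CPM with IFNβ and 213, 206 and 207 CPM with IFNγ, which did not overlap (log2 difference 0.22, adjusted p = 0.0138). Rpl36 was also higher (0.32, adjusted p = 0.0331), and Rpl3 was lower (-0.21, adjusted p = 0.0171), as it was in B16F10 cells. Rpl7l1 was not called without IFNγ replicate 2 or 3 or IFNβ replicate 3, Rpl3 not without IFNγ replicate 1 or IFNβ replicate 1 or 2, and Rpl36 not without IFNγ replicate 2 or IFNβ replicate 3. The higher count was 0 without IFNγ replicate 2 or IFNβ replicate 3, 6 without IFNβ replicate 1, 8 without IFNβ replicate 2 and 18 without IFNγ replicate 3.

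Whether a treatment acted differently in the lines was tested with an interaction term fitted to the 24 libraries. For IFNβ, 11 of 81 genes had a more positive effect in 6694c2 than in B16F10 cells (against 6.16% of all genes) and 0 a more negative one (against 5.9%; 1 at an unadjusted p under 0.05, 0 by DESeq2). Among the 849 abundant other genes, 23.1% were more positive in 6694c2 cells, so the 11 genes do not stand out from genes of that level. The median difference was 0.10, and 0.01 without 6694c2 vehicle replicate 1, when 8 genes were more positive and 1, Rpl7, was more negative (-0.27, adjusted p = 0.0439).

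Rpl10a had the smallest p. Its CPM in 6694c2 cells was 601, 710 and 643 with vehicle and 648, 721 and 728 with IFNβ, which overlapped, against the decrease in B16F10 cells given above. The effects differed by 0.52 (SE 0.103, adjusted p = 0.000345). For Rps6, the small subunit protein phosphorylated downstream of mTORC1, 1303, 1423 and 1484 CPM with vehicle stood against 1439, 1710 and 1570 CPM with IFNβ in 6694c2 cells. In B16F10 cells the values were 971, 922 and 970 CPM against 805, 788 and 852 CPM, and the effects differed by 0.37 (SE 0.087, adjusted p = 0.00293).

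Rps20 differed by 0.53 (SE 0.126, adjusted p = 0.00293), with 515, 562 and 562 CPM in vehicle and 447, 419 and 496 CPM in IFNβ libraries of B16F10 cells, and the higher 6694c2 values above. These 3 genes were called in all 16 alternatives. The others were Rpl4, Rpl7a, Rpl37, Rpl37a, Rpl41, Rps15, Rps28 and Rps29, with differences from 0.25 for Rpl7a to 0.74 for Rps29. For Rpl4 the effect was negative in both lines, -0.54 and -0.22, and the difference was 0.30 (adjusted p = 0.00998). The number called was 17 without 6694c2 vehicle replicate 2 and 21 without B16F10 IFNβ replicate 3.

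**Figure D4:**
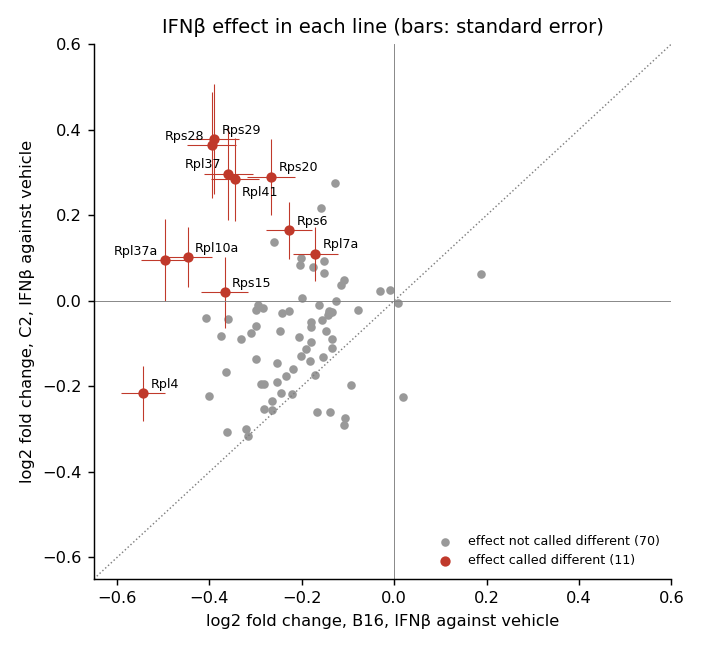
Log2 fold change with IFNβ in B16F10 cells (x axis) against that in 6694c2 cells (y axis) for the 81 genes, with the 11 genes whose effect differed between the lines in red with SE bars. Most points lie left of 0 on the x axis, and the red ones lie above the diagonal, by 0.25 to 0.74.

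For IFNγ, 0 genes had a different effect in the lines in either direction, against 4.52% of all genes more positive and 4.95% more negative in 6694c2 cells. At an unadjusted p under 0.05 there were 2 and 3, DESeq2 called 0, and the median difference was -0.00. Without 6694c2 vehicle replicate 1, Rpl7 was more negative (-0.28, adjusted p = 0.0385). For STING agonist, 1 gene was more positive in 6694c2 cells (against 0.568% of all genes) and 0 were more negative (against 1.56%; 4 at an unadjusted p under 0.05, 1 by DESeq2). That gene was Rps20, with a difference of 0.47 (adjusted p = 0.0356), called in 6 of 16 alternatives. Without 6694c2 vehicle replicate 1, 0 were more positive and 2 more negative, among them Rps27l (-0.45, adjusted p = 0.00933). The CPM of Rps20 in 6694c2 cells was 806, 1069 and 931 with vehicle and 1114, 1148 and 1117 with the agonist, where the groups did not overlap, and the opposite order held in B16F10 cells.

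The largest differences were between the untreated lines. With vehicle, 59 genes were higher in 6694c2 than in B16F10 cells (against 28.7% of all genes) and 5 lower (against 29.3%), and 28 differed over 1.5-fold, 8 of them over 2-fold. How many other genes differed over 1.5-fold or 2-fold was not counted, so these fold counts have no background. The median difference was 0.38, or 30.5% higher, against 0.16 for the 849 abundant other genes, of which 51% were higher and 35.1% lower. The interquartile range (upper minus lower quartile) of the log2 differences was 0.57 for the ribosomal protein genes and 1.1 for these 849 genes. Differences between the lines were thus spread more widely among the 849 genes. By subunit, 25 of 32 small subunit, 32 of 46 large subunit and 2 of 3 stalk genes were higher. Scaling to total reads in place of TMM, the trimmed mean of log ratios, moved the median of all genes from -0.01 to -0.19 and that of these genes to 0.20, with 43 higher and 8 lower. Without 6694c2 vehicle replicate 1, 66 were higher and 3 lower.

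Rps2, a small subunit protein at the entrance of the messenger RNA channel (chr17:24718116-24721929), had the largest difference. Scaled over both lines, its CPM was 2011, 1868 and 1989 in B16F10 and 5224, 5676 and 5663 in 6694c2 cells, 2.82-fold higher (log2 difference 1.50, adjusted p = 2.42e-25). Rpsa was at 1678, 1489 and 1642 CPM against 3739, 4272 and 4492 CPM, 2.6-fold higher. The lines were far apart for both genes.

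Rplp0 was 2.19-fold higher (log2 difference 1.13), at 2136, 1957 and 2145 CPM against 4108, 4730 and 4796 CPM. The other stalk genes differed less, Rplp2 by 0.34 (adjusted p = 0.00075), while Rplp1, at -0.08, was not called. Rps18 (1.19), Rpl22 (1.10) and Rpl14 (0.96, adjusted p = 3.08e-18) were also higher. For Rpl14 the CPM was 715, 717 and 722 in B16F10 and 1338, 1356 and 1500 in 6694c2 cells. Rpl5 and Rpl11 were higher by 0.86 and 0.89, Rpl7 by 0.92, and Rpl13a by 0.69.

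Rps27l had by far the largest difference among the lower genes, at 383, 362 and 403 CPM in B16F10 and 128, 162 and 156 CPM in 6694c2 cells, 0.389 of the B16F10 level (log2 difference -1.36, adjusted p = 1.07e-18). Its parent Rps27 was higher by 0.80. Rpl22l1 was lower, at -0.38 (adjusted p = 0.0017), at 95.0, 103 and 111 CPM against 67.0, 86.1 and 83.6 CPM, while Rpl22 was higher. Rpl36a was higher by 0.83, and its copy Rpl36al, at 0.15, was not called. Rpl7l1 was higher by 0.34. The opposite directions of Rps27l and Rps27, and of Rpl22l1 and Rpl22, held in all 10 alternatives.

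The other lower genes were Rpl39 (-0.35, adjusted p = 0.00523), Rps4x (-0.25, adjusted p = 0.000313) and Rpl10 (-0.20, adjusted p = 0.00557). Rps4x, the X-linked form of a small subunit protein, was at 1353, 1299 and 1387 CPM in B16F10 and 1040, 1173 and 1176 CPM in 6694c2 cells, which did not overlap. All 3 lie on the X chromosome, a grouping chosen after their values were seen. Of the 4 genes there, 3 were lower and 1, Rpl36a, was higher, against 2 lower and 58 higher of the 77 elsewhere. Among other genes of at least 10 CPM, 63.2% of 247 on the X chromosome were lower in 6694c2 cells (median -0.54), against 40.1% of 9012 elsewhere.

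**Figure D5:**
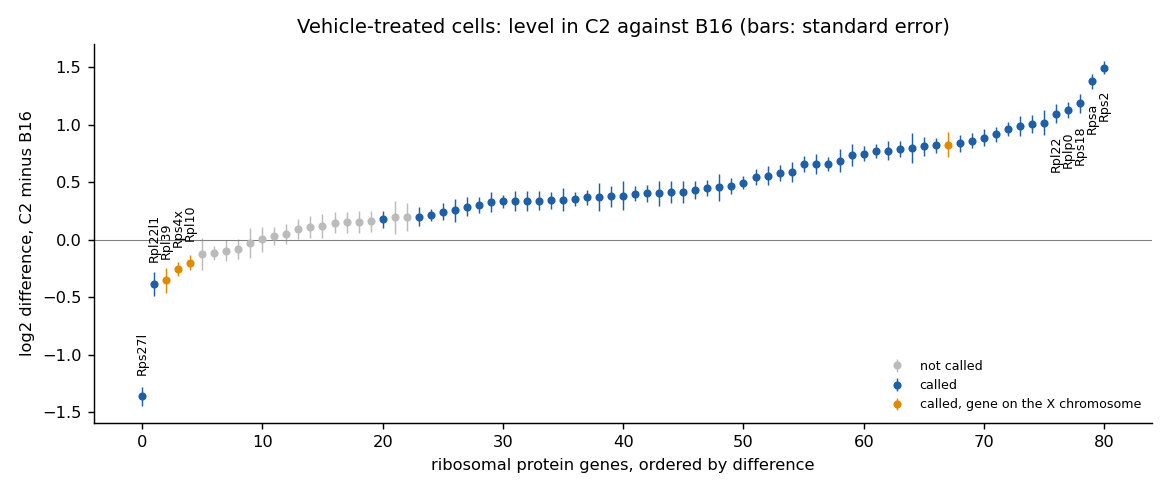
Log2 difference between 6694c2 and B16F10 vehicle cells (y axis, with SE bars) for the 81 genes in order of size along the x axis, with X-linked genes that were called in orange. The points run from -1.36 for Rps27l to 1.50 for Rps2, and 59 are called higher.

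Related genes were described from lists chosen with earlier results of these data known. Their counts are read against other genes of at least 10 CPM, of which 21.7% were lower and 21.4% higher with IFNβ and 20.3% lower with IFNγ in B16F10 cells, and 13.9% lower and 19.1% higher with IFNβ and 9.72% lower with IFNγ in 6694c2 cells. Ribosomal proteins under other symbols include Fau, which is made as a fusion with a relative of ubiquitin, and Rack1, a signalling scaffold on the small subunit. All 3 on this list fell with IFNβ in B16F10 cells, with log2 fold changes of -0.24 for Fau (adjusted p = 7.88e-05) and -0.13 for Rack1 (adjusted p = 0.0313). With STING agonist 0 of 3 were called in either line. In 6694c2 vehicle cells Fau and Rack1 were higher than in B16F10 cells, by 0.75 and 0.71.

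Of 18 translation factors and other messenger RNAs known to carry a TOP motif, 10 were lower and 0 higher with IFNβ and 8 lower with IFNγ in B16F10 cells, and 4 and 6 were lower in 6694c2 cells. Among the 849 other genes of at least 200 CPM, 46.5% and 37.7% were lower in B16F10 and 16.3% and 14.3% in 6694c2 cells. Hnrnpa1, an RNA-binding splicing protein, was at -0.84 on the log2 scale (adjusted p = 3.1e-45) and Pabpc1, the poly(A)-binding protein, at -0.44 with IFNβ in B16F10 cells. Nap1l1, a histone chaperone, changed by -0.44 with IFNβ in 6694c2 cells. Between the vehicle lines, 15 of the 18 were higher in 6694c2 cells, against 51% of the 849 other genes. Of 6 host genes of small nucleolar RNAs, which guide modification of ribosomal RNA, 5 were lower and 1 higher with IFNβ in B16F10 cells. With IFNγ, 5 were lower in that line. Snhg8 (-0.97) and Gas5 (-0.51) had the smallest p with IFNβ, and Snhg12 (0.33) was the higher gene. In 6694c2 cells 4 were lower and 1, Snhg6 (0.39), was higher with IFNβ, and 3 were lower with IFNγ.

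With IFNβ, the ribosome biogenesis genes that were called were mostly lower in B16F10 and mostly higher in 6694c2 cells. In B16F10 cells, 13 of 32 were lower and 1 higher with IFNβ, among the lower ones Nhp2 (-0.42) and Nop10 (-0.47), both of the box H/ACA particle, and 19 were lower with IFNγ, among them Nolc1 (-0.47) and Ncl (-0.36). In 6694c2 cells, 12 were higher and 1 lower with IFNβ, with Rrp9 at 0.53 and Nop2 at 0.36, and 1 higher and 3 lower with IFNγ. The interaction called 11 of the 32 more positive and 0 more negative for IFNβ in 6694c2 cells. Of other genes of at least 10 CPM it called 12.7% and 10.6%, and of those of at least 200 CPM 23.1% and 6.36%. Of 7 RNA polymerase I genes, 2 were lower and 1 higher with IFNβ in B16F10 cells, where Ubtf, a factor for ribosomal RNA transcription, fell by 0.61, and Polr1c rose by 0.64 in 6694c2 cells.

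Myc, which drives transcription of ribosome genes, fell in B16F10 cells, with log2 fold changes of -0.77 with IFNβ (adjusted p = 3.8e-15), -0.77 with IFNγ and -0.43 with STING agonist. In 6694c2 cells it rose by 0.87 with IFNβ (adjusted p = 5.26e-14) and by 0.21 with IFNγ (adjusted p = 0.0329), and it was higher than in B16F10 cells with vehicle, by 1.93. Larp1 was at 0.10 with IFNβ (not called) and rose by 0.37 with IFNγ in B16F10 cells, and rose by 0.53 and 0.43 in 6694c2 cells. Within the list of 18 genes of the Myc network and mTORC1, 5 were higher and 2 lower with IFNβ in B16F10 cells, and 7 higher and 2 lower in 6694c2 cells. All 8 interferon-induced translation inhibitors were higher with IFNβ in both lines, at median log2 fold changes of 3.92 and 8.47. Of 78 mitochondrial ribosomal proteins, a separate set, 19 were lower and 11 higher with IFNβ in B16F10 cells, and 5 lower and 21 higher in 6694c2 cells.

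The ribosomal protein genes were also split by the start motif in B16F10 cells after IFNβ. RefSeq starts were not measured in these cells, and a gene without the motif there can still carry it. The split therefore cannot show the part of the motif in the decrease. All 12 genes with C and 4 further C or T bases at the RefSeq start were lower (median -0.20), as were 41 of 49 without it (median -0.22). Of 163 other genes of at least 10 CPM with that motif, 23.3% were lower. With STING agonist in B16F10 cells, 3 of the 12 were among the 5 genes called higher, and 2 were among the 49 without the motif. Of the sequences above, which share this limit, that of Rpl35 has the run and that of Rpl4 does not, and both genes fell.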

How the data were processed

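PolyA RNA of B16F10 and 6694c2 cells was sequenced in 24 libraries, 3 in each of 8 groups assigned by the sample labels. The authors used cutadapt, STAR and Rsubread and deposited unnormalized read counts per gene, with the exonic length in bases beside them. Genome build, annotation, strand setting and treatment of multi-mapping reads are not given in the sources used here. Of the 81 genes, 67 have the same start, end and strand in GENCODE M21 (GRCm38), so coordinates are on that build. The study's single-cell samples were not analysed here.

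Genes whose reads summed to 10 or more over all libraries (21138 of 49315) were fitted with edgeR 4.0.16 (R 4.3.3), TMM normalization and group means, over the 12 libraries of a line for treatments and all 24 for differences between lines. P-values of the quasi-likelihood F-test were Benjamini-Hochberg adjusted over all genes. SE is the log2 fold change over the square root of F. CPM uses the TMM size of the line, or of both lines for the vehicle comparison, and RPKM uses total reads on genes (15543131 to 32266795 per library). Starts are those of RefSeq promoters, 1 per gene.

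Simulated data with 200 changed genes were tested with the same code over 21138 genes. For IFNβ in B16F10 cells, 96 of 100 at a log2 change of 1 and 73 of 100 at 0.5 were recovered (8 false calls). It was 94 and 70 for IFNβ in 6694c2 cells (22 false calls), and 93 and 71 for STING agonist in 6694c2 cells (23 false calls). Changes below 0.5, as most of the ribosomal protein genes had against vehicle, were not simulated. The changed genes were not picked at the level of these genes. Recovery at the sizes reported is therefore not known.

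The genes and all lists were chosen with earlier results of these data known. Named were, per comparison with vehicle, the 5 called genes of smallest p in each direction (3 in other comparisons), the stalk genes, Rpsa, Rpl13a, Rpl5, Rpl11, copies with their parents, and the 3 highest and lowest by RPKM. Other lists gave the 2 genes of smallest p, and Fau, Rack1, Myc and Larp1 always. Rps24, Rps29 with STING agonist in 6694c2 cells and the X-linked genes are exceptions, picked once their values were known. Values of a few genes and 1 allele of 6694c2 cells are not reported here. Alternatives were DESeq2 1.42.0, RLE size factors, total reads without TMM, TMM without these genes, other filters, a replicate block, 1 fit over both lines, pseudogene rows added and each library left out.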

Additional observations from a re-analysis of the deposited data

Results flagged for a closer look

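With IFNβ, 11 of the 81 ribosomal protein genes differed in effect between the lines by an interaction test, all more positive in 6694c2 than in B16F10 cells. More positive were 13.6% of these genes, 6.16% of all genes and 23.1% of the 849 other genes of at least 200 CPM. The 11 genes thus do not stand out from genes of that level. The log2 differences were 0.522 for Rpl10a, 0.3658 for Rps6, 0.5287 for Rps20, 0.5642 for Rpl37a, 0.6013 for Rpl41, 0.7319 for Rps28, 0.629 for Rpl37, 0.741 for Rps29, 0.3005 for Rpl4, 0.2544 for Rpl7a and 0.3598 for Rps15. Rpl41, Rps20, Rps28 and Rps29 were lower in B16F10 and higher in 6694c2 cells, and their higher calls in 6694c2 cells did not hold without vehicle replicate 1 of that line, the library with the lowest vehicle value for all 81 genes. Without it, 9 genes differed, 8 more positive and 1, Rpl7, more negative in 6694c2 cells. Its part in the difference was not tested beyond leaving it out. With STING agonist, 1 gene, Rps20, was more positive, by 0.4661, against 0.568% of all genes and 2.12% of the 849 other genes. Without that library 0 genes were more positive and 2 more negative.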

How the results depend on the processing

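No named gene past the threshold turned direction under the alternatives run, but the balance of counts did. In 6694c2 cells IFNβ gave 8 higher and 4 lower without vehicle replicate 2, and IFNβ against IFNγ gave 0 higher and 7 lower without IFNβ replicate 3 and 0 and 2 without IFNγ replicate 2. The STING agonist effect between lines gave 0 higher and 2 lower without 6694c2 vehicle replicate 1. With 1 fit over both lines, the numbers were 0 higher and 42 lower for IFNβ, 7 lower for IFNγ and 0 higher and 0 lower for STING agonist in B16F10 cells, and 1 higher and 16 lower for IFNβ and 14 lower for IFNγ in 6694c2 cells. With DESeq2 they were 2 higher and 2 lower for STING agonist in B16F10 cells, 0 higher for IFNβ and 1 higher for IFNβ against IFNγ in 6694c2 cells, and 2 higher and 1 lower for the STING agonist effect between lines. With the filterByExpr minimum they were 1 higher for STING agonist in B16F10 and 0 higher for IFNβ in 6694c2 cells. With total reads they were 0 higher and 21 lower for IFNβ, 18 lower for IFNγ, and 1 higher and 2 lower for IFNβ against IFNγ in 6694c2 cells, 8 lower for IFNβ against IFNγ in B16F10 cells, 1 lower for the IFNβ effect between lines and 8 lower between the vehicle lines. With no minimum, 6694c2 cells had 7 higher and 21 lower for IFNβ, 1 higher and 20 lower for IFNγ, and 8 higher and 1 lower for STING agonist.

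Whether the replicate numbers pair the samples was not settled. Same-numbered libraries of different groups had correlations of their deviations from -0.269 to 0.276 (median 0.0825) in B16F10 cells. In 6694c2 cells they ran from -0.484 to 0.385 (median 0.0395). Libraries of different numbers ran from -0.237 to 0.286 (median -0.043) and from -0.6 to 0.586 (median -0.0175). The replicate 2 pairs of B16F10 cells were all above 0, at 0.01 to 0.276. With the replicate number as a block, 2 were lower for STING agonist in B16F10 cells, and 6694c2 cells had 7 higher and 17 lower for IFNβ, 18 lower for IFNγ, 5 higher for STING agonist, and 11 higher and 4 lower for IFNβ against IFNγ. The STING agonist effect between lines had 1 lower.

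Leaving out 1 library gave 0 to 1 higher and 53 to 74 lower for IFNβ, 16 to 47 lower for IFNγ and 0 to 6 higher and 0 to 1 lower for STING agonist in B16F10 cells. In 6694c2 cells it gave 0 to 8 higher and 3 to 29 lower for IFNβ, 0 to 1 higher and 2 to 40 lower for IFNγ, and 0 to 4 higher for STING agonist. For IFNβ against IFNγ it gave 1 to 2 higher and 9 to 44 lower in B16F10 cells and 0 to 18 higher and 0 to 7 lower in 6694c2 cells. Between the lines it gave 8 to 21 higher and 0 to 1 lower for IFNβ, 0 to 3 and 0 to 1 for IFNγ, 0 to 3 and 0 to 2 for STING agonist, and 51 to 66 and 3 to 6 with vehicle. The causes were not tested. Among single named genes, 162 alternative values were no longer past the threshold, 97 newly passed it, and 3274 kept their side.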
